A study of Mus musculus with 20 samples.

Results

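Macrophages of the dura with high MHC class II were compared with microglia. The dura forms the tough outer layer of the membranes that enclose the brain, and microglia are the macrophages of the brain tissue itself. The comparison takes the 4 libraries labelled as MHC II-high dura, numbered 1 to 4, and the 4 microglia libraries, numbered 1, 3, 4 and 5, so 8 of the 20 libraries of the series. The series measured total RNA by sequencing in 5 populations with 4 libraries each, and the other populations are MHC II-low dura macrophages, choroid plexus macrophages and peritoneal macrophages. The MHC II-low group is named low by its cell type label and int by its titles, and the dura labels give the tissue and the MHC II level without the word macrophage. All cells came from C57BL/6JRj mice, and the labels name no mutant allele, transgene or treatment in any group. The labels used here give no age, no sex and no sorting scheme, and do not say whether the 4 libraries of a group came from separate animals. The p-values given here thus reflect only how far these libraries differ, which may be technical.

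Microglia settle in the brain before birth and renew themselves there, behind the blood–brain barrier. Macrophages of the brain's borders lie outside that barrier, and in the dura many of those with MHC class II are replaced from blood monocytes that carry the chemokine receptor Ccr2. MHC class II molecules are pairs of an alpha and a beta chain that show peptides from ingested proteins to helper T cells. The invariant chain Cd74 escorts them, H2-DM loads them with peptide, H2-O restrains H2-DM, and the coactivator Ciita switches on their genes together with the factors of the RFX complex.

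The labels were checked against genes that mark the groups. Levels are given in CPM, the counts of a gene per 1e+06 gene counts of the library after TMM scaling, in the order of the library numbers. H2-Ab1, the beta chain of the class II molecule I-A, was at 12095, 10583, 11485 and 11065 CPM in MHC II-high dura and 25.5, 25.3, 14.8 and 15.3 CPM in microglia. Ccr2 was at 1071, 1067, 1135 and 1255 CPM in MHC II-high dura and 2.26, 2.16, 2.43 and 3.7 CPM in microglia. Ms4a7, a membrane protein of border macrophages, was at 544, 521, 495 and 509.8 CPM in MHC II-high dura and 1.38, 0.432, 0.347 and 0.264 CPM in microglia. The 4 MHC II-high dura libraries lay far above the 4 microglia libraries for these 3 genes. The microglial membrane protein Tmem119 was at 276, 204, 213 and 202 CPM in MHC II-high dura and 6125, 4375, 5607 and 5839.9 CPM in microglia, so that each microglia library lay above each MHC II-high dura library. Macrophage genes were present in both groups: Spi1, the lineage factor PU.1, was at 523, 418, 421 and 426 CPM in MHC II-high dura and 518, 517, 562 and 526 CPM in microglia, and these ranges overlapped.

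Gene counts per library came to 22203235–32611875 in MHC II-high dura and 15312617–17156227 in microglia, so that 3 counts stand for 0.0978–0.134 CPM and 0.174–0.198 CPM. Correlations of log2 CPM between libraries of a group were 0.958–0.9638 in MHC II-high dura and 0.9133–0.9795 in microglia. Library 3 of microglia stood apart in 15 genes of the choroid plexus epithelium, with a summed level of 21681 CPM against 71.8, 748 and 349.6 CPM in microglia 1, 4 and 5 and 24.6–53.5 CPM in MHC II-high dura. Microglia 5 stood apart in 16 interferon response genes, with a summed level of 1691 CPM against 247–302 CPM in the other 3. Results are therefore given with and without microglia 3, and any other library is named where leaving it out changed a call or moved a fold change or count by more than 1.5-fold. Where a fold change is printed alone, leaving out microglia 3 or any other of the 8 libraries moved it by less than that.

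Calls required an adjusted p under 0.05 together with a change of at least 2-fold, in an edgeR fit of all 20 libraries that tested 13960 genes. Of these, 2197 (15.7%) were higher and 1699 (12.2%) lower in MHC II-high dura than in microglia, and 10064 were not called. Without microglia 3, 2327 (16.4%) were higher and 1630 (11.5%) lower among 14156 genes. Of the calls, 1997 higher and 1447 lower were made both with and without that library. Differences of 16-fold or more were frequent, with 542 genes higher and 451 lower. All 4 MHC II-high dura libraries lay above all 4 microglia libraries for 3721 genes (26.7%) and below them for 3079 (22.1%). The median log2 fold change over all tested genes was 0.02, and 0.03 without microglia 3. Values after ± are standard errors of a log2 fold change unless named SD. Gene lists are described by their counts of called members and their median, to be read against these shares and this median, and a gene can be in several lists. In the lists below with 0 calls against microglia in a direction, DESeq2 made 0 calls too, and at most 1 member had an unadjusted p under 0.05 in that direction, except for 3 cholesterol synthesis genes. In bulk RNA, fewer cells of a type and less RNA of a gene per cell cannot be told apart, which holds for every difference that follows.

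**Figure D1:**
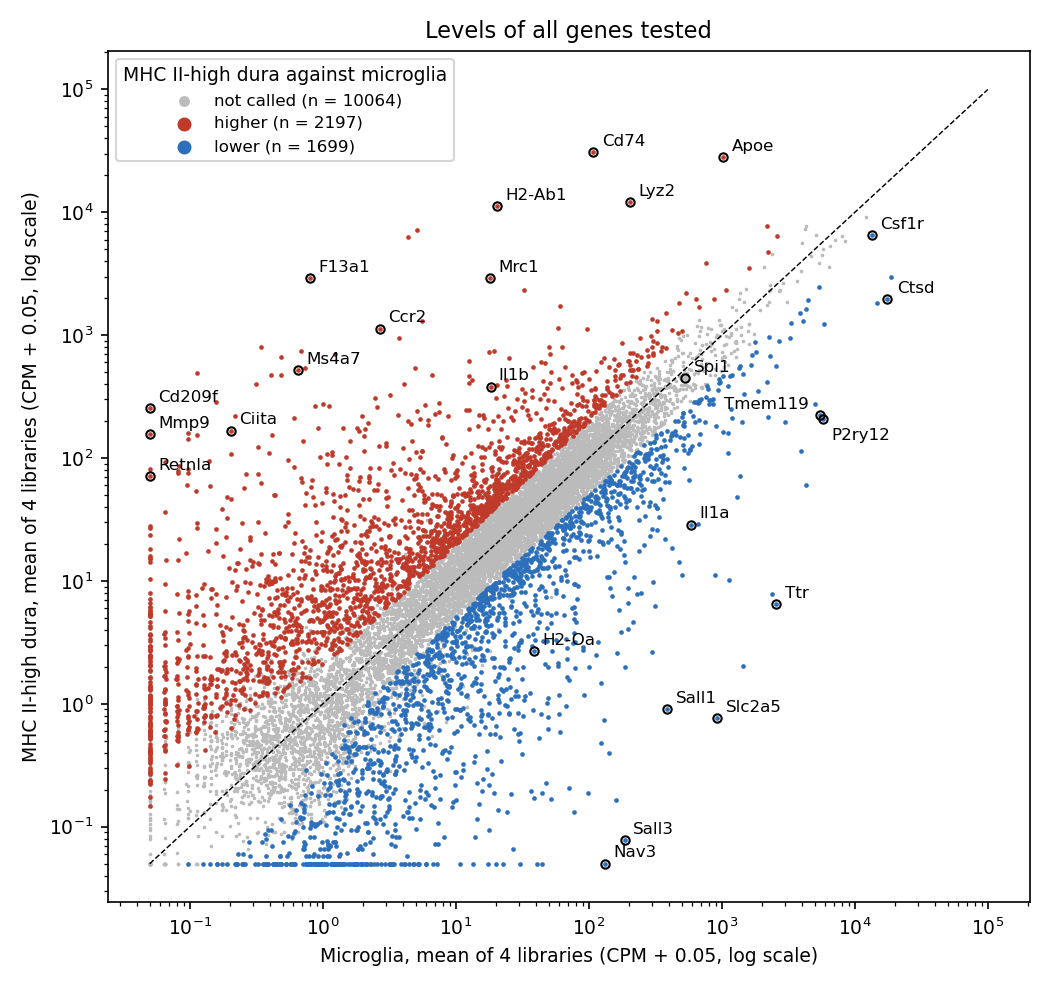
Mean level of each of 13960 tested genes in 4 microglia libraries (x axis) and 4 MHC II-high dura libraries (y axis), both in CPM + 0.05 on log scales, with the dashed line at equal levels. The 2197 genes called higher in MHC II-high dura are red and reach the top left with Cd209f, Mmp9 and Ciita, the 1699 called lower are blue and reach the bottom right with Nav3, Sall3 and Slc2a5, and the 10064 genes not called are grey.

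MHC class II genes define the MHC II-high dura group by its label, so that their rise over microglia checks the label and is no finding. What the label does not fix is how far each member of the pathway went along. The invariant chain, the coactivator, both chains of I-A and the beta chain of I-E were higher by 8.15 or more on the log2 scale. H2-DM was higher by 2.69 or less. The alpha chain of I-E was not among the genes considered. H2-O was lower, and the RFX factors were not called. Of 13 tested MHC class II genes, 7 were called higher and 2 lower (7 and 2 without microglia 3), with a median log2 fold change of 1.45. H2-Eb2 had too few counts to be tested. Ciita was at 191, 177, 145 and 157 CPM in MHC II-high dura and 0.502, 0, 0.116 and 0 CPM in microglia (log2 fold change 10.03 ± 0.90, adjusted p = 7.05e-08, and 9.56 without microglia 3 and a ratio of 4102 (95% interval 1135–33877) without microglia 1). It was nearly without counts in microglia and the groups did not overlap.

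H2-Aa, the alpha chain of I-A, was at 7279, 6888, 7455 and 6897 CPM in MHC II-high dura and 6.27, 9.14, 1.79 and 3.11 CPM in microglia (log2 fold change 10.46 ± 0.72, adjusted p = 1.9e-09, and 10.84 without microglia 3). Cd74 was at 33158, 29083, 31291 and 30001 CPM in MHC II-high dura and 94.9, 146, 101 and 92 CPM in microglia (log2 fold change 8.15 ± 0.56, adjusted p = 1.23e-09, and 8.26 without microglia 3). H2-Eb1, the beta chain of the class II molecule I-E, had a log2 fold change of 10.50, and H2-Ab1 one of 9.13. All of these were present in microglia at low levels, with no overlap between the groups. H2-DMb1, the beta chain of the peptide loader, was at 507, 447, 473 and 482 CPM in MHC II-high dura and 80.4, 66.2, 75.3 and 74.4 CPM in microglia (log2 fold change 2.69 ± 0.27, adjusted p = 1.39e-07, and 2.57 without microglia 3), and its partner H2-DMa rose by 1.45. Neither H2-DM chain overlapped between the groups.

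H2-Oa, the alpha chain of H2-O, went the other way. It was at 2.41, 2.14, 4.04 and 1.89 CPM in MHC II-high dura and 40.2, 31.9, 41.5 and 40.4 CPM in microglia (log2 fold change −3.88 ± 0.28, adjusted p = 4.98e-10, and −4.02 without microglia 3). H2-Ob, its beta chain, was at 15.6, 18.6, 20.2 and 21.5 CPM in MHC II-high dura and 56.2, 45.5, 50.7 and 41.4 CPM in microglia (log2 fold change −1.35 ± 0.18, adjusted p = 2.85e-06, and −1.45 without microglia 3). Every microglia library lay above every MHC II-high dura library for both. H2-DMb2 (0.73) and the RFX genes Rfx5 (−0.43), Rfxank (−0.64) and Rfxap (−0.09) were not called. Part of the exon length of H2-Oa (22.8%), H2-DMa (10.4%), Rfx5 (26.8%) and Rfxank (33.8%) lies in other genes, and the H2 genes are close paralogs, so that their counts are less certain.

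The direct contrasts place these levels among the border macrophages. Against MHC II-low dura, 334 of 13960 genes (2.39%) were higher and 207 (1.48%) lower in MHC II-high dura. These contrasts share the MHC II-high dura libraries with the main one. Of the class II genes, 10 were among the higher ones, H2-Oa and H2-Ob included: MHC II-low dura held 0.716 ± 0.362 CPM (mean ± SD, n = 4) of H2-Oa and 5.85 ± 2.03 CPM of H2-Ob. Both H2-O genes thus ran in the order microglia, MHC II-high dura, MHC II-low dura, with each step past the test. Against choroid plexus macrophages, where 559 genes (4%) were higher and 820 (5.87%) lower, 0 class II genes were called by edgeR or DESeq2, and 1 was higher and 4 lower at an unadjusted p under 0.05. The list's median log2 fold change was 0.19 there, and Ciita was at 167 ± 20.4 CPM in MHC II-high dura and 108 ± 20.8 CPM in choroid plexus (0.63 ± 0.50, adjusted p = 0.381).

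The sequences before the starts of these genes are shown because genes that rose and genes that fell share the same short element there. RefSeq promoters of build GRCm38.p6 were in hand for 10 of the 14 class II genes. The 250 bases before each start were searched on both strands for 3 motifs, chosen after the sequences had been read: the Y box as TGATTGG, a part of the X box as ATGATGC, and the cAMP response element as TGACGTCA. Of 27025 genes in the table, 2265 (8.38%) hold the Y box letters, 629 (2.33%) the X box letters, 478 (1.77%) the cAMP element, and 91 (0.337%) a Y box with one of the other 2. Each line gives 120 bases of the coding strand, 5′ to 3′, ending at the base before the start, with the motif matches in capitals.
H2-Aa: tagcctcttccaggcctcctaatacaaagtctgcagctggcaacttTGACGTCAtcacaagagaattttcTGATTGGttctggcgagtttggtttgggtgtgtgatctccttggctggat
H2-Eb1: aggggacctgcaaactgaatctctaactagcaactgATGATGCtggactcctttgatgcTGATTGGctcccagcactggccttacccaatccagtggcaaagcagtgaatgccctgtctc
H2-DMb1: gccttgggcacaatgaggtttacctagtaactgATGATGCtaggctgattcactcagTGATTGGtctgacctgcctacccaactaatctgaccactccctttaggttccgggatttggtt
H2-DMb2: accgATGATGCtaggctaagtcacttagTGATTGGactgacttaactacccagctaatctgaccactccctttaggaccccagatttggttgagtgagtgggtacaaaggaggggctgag
H2-Oa: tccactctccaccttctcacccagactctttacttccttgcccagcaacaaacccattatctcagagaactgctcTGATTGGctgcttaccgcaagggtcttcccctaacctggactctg
H2-Ob: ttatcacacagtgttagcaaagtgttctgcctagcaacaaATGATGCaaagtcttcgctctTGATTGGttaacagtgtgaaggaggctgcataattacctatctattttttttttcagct
In GRCm38.p6 these lie at chr17:34287824-34287943 on the minus strand for H2-Aa. On the plus strand they lie at chr17:34305747-34305866 for H2-Eb1, chr17:34153071-34153190 for H2-DMb1, chr17:34145129-34145248 for H2-DMb2, chr17:34092259-34092378 for H2-Oa and chr17:34238785-34238904 for H2-Ob. All 6, and H2-Eb2, hold the Y box letters, on the strand shown, and in the 6 lines they begin 45 to 92 bases before the start. Of the other 3 genes searched, Rfx5 holds the Y box letters at 2 places on the opposite strand, 113 to 107 and 54 to 48 bases before the start, and H2-DMa and Rfxank hold none of the 3 motifs. H2-Eb1, H2-DMb1, H2-DMb2 and H2-Ob hold the X box letters upstream of them, and H2-Aa holds the cAMP element there. H2-Eb1 (10.50), H2-DMb1 (2.69), H2-DMb2 (0.73, not called) and H2-Ob (−1.35) thus matched the same motifs and had very different log2 fold changes. In the line of H2-Oa (−3.88) only the Y box letters matched. A match is a description of the letters and says nothing of binding in these cells.

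**Figure D2:**
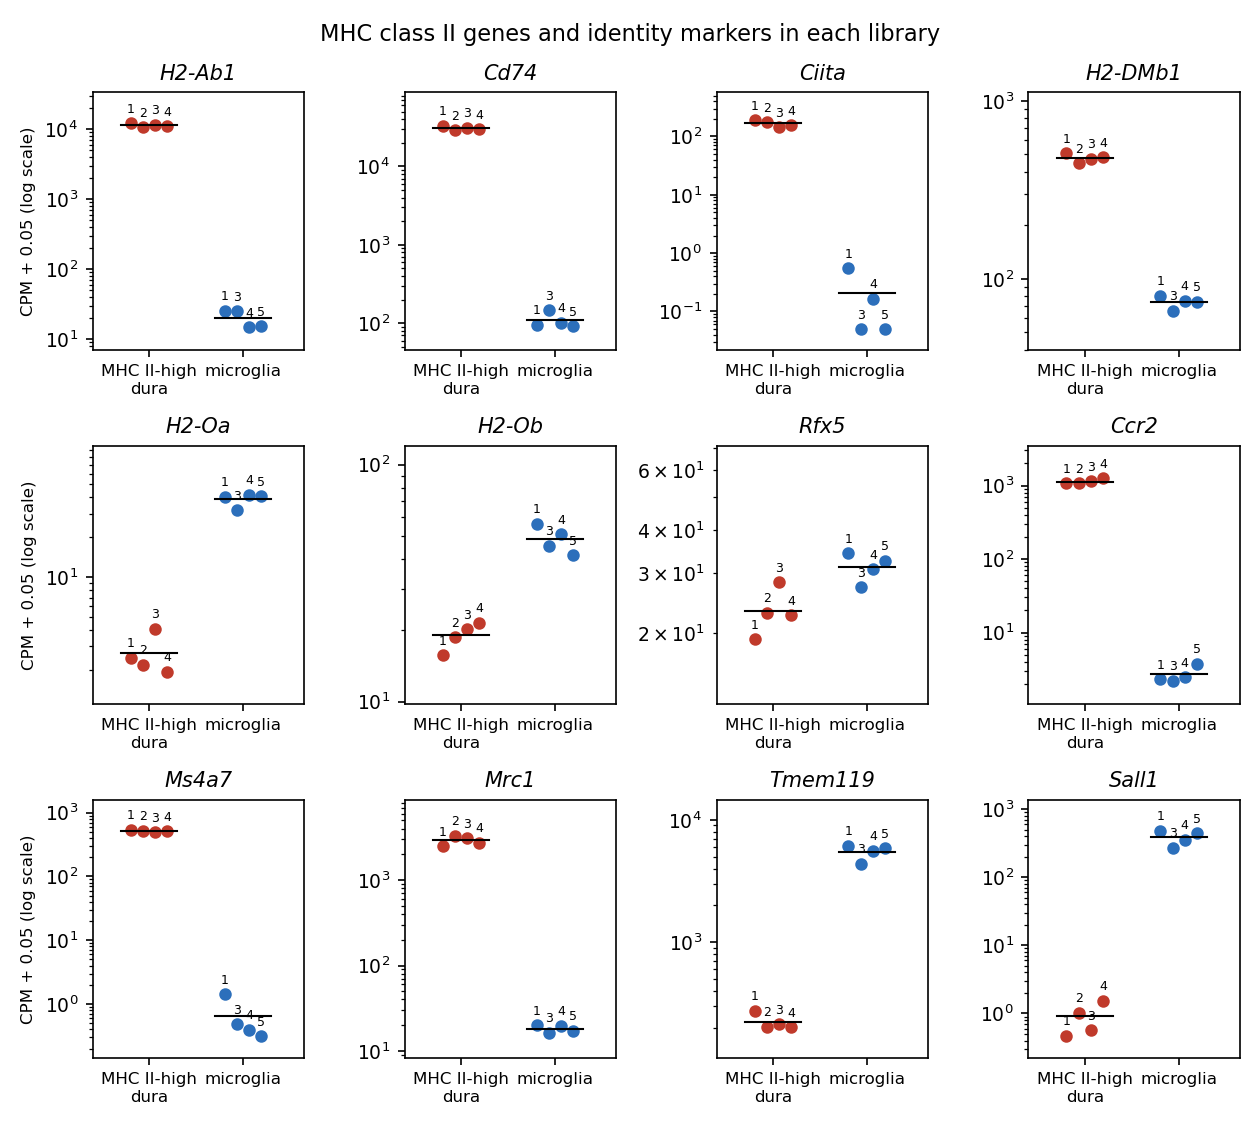
Level of 12 genes in each library (points with the library number, CPM + 0.05, log scales that differ between panels), with lines at the group means of 4 MHC II-high dura (red) and 4 microglia libraries (blue). Ciita was at 145–191 CPM in MHC II-high dura and at most 0.502 CPM in microglia, H2-Oa and H2-Ob lay lower in every MHC II-high dura library, and the ranges of Rfx5 overlapped.

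MHC class I genes show peptides from inside the cell, and their differences were smaller than those of the class II chains. Of 14 tested genes of class I and peptide loading, 6 were called higher and 0 lower (6 and 0 without microglia 3), with a median log2 fold change of 0.76. H2-K1, a class I heavy chain, was at 2715, 1622, 1528 and 2006 CPM in MHC II-high dura and 513, 456, 574 and 1036 CPM in microglia (log2 fold change 1.61 ± 0.34, adjusted p = 0.000715, and 1.41 without microglia 3). H2-D1, another heavy chain, was at 2853, 1824, 1745 and 2329 CPM in MHC II-high dura and 479, 386, 467 and 805 CPM in microglia (log2 fold change 2.03 ± 0.26, adjusted p = 2.84e-06, and 1.84 without microglia 3). Psmb9, a subunit of the immunoproteasome, rose by 1.52 on the log2 scale. Microglia 5 was the highest microglia library for these 3 genes, and the groups did not overlap. B2m, the light chain of class I, was short of the 2-fold rule (log2 fold change 0.93 ± 0.28, adjusted p = 0.00799, and 0.75 without microglia 3 and 1.08 and called without microglia 5).

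Costimulatory genes did not follow the class II genes as a group. Of 11 tested costimulation and checkpoint genes, 4 were called higher and 2 lower (2 and 2 without microglia 3), with a median log2 fold change of 0.35. Cd40, the receptor for T cell help, was at 65.5, 54.2, 69.6 and 67.4 CPM in MHC II-high dura and 0.815, 0.309, 0.81 and 0.661 CPM in microglia (log2 fold change 6.61 ± 0.21, adjusted p = 2.18e-15, and 6.31 without microglia 3). Cd86 (−0.17, adjusted p = 0.364) and Cd80 (0.35, adjusted p = 0.0623), the ligands of Cd28, overlapped between the groups and were not called. Lag3, an inhibitory receptor that binds MHC class II, was at 3.95, 1.92, 2.48 and 1.38 CPM in MHC II-high dura and 115, 101, 117 and 122 CPM in microglia (log2 fold change −5.54 ± 0.26, adjusted p = 1.19e-11, and −5.65 without microglia 3). Havcr2, the checkpoint receptor Tim-3, was at 66.5, 71.1, 56.2 and 64.9 CPM in MHC II-high dura and 319, 268, 288 and 312 CPM in microglia (log2 fold change −2.20 ± 0.28, adjusted p = 2.52e-06, and −2.31 without microglia 3). Both were lower in each MHC II-high dura library than in any microglia library. Havcr2 was nevertheless higher in MHC II-high dura than in MHC II-low dura (1.38 ± 0.27, adjusted p = 0.00271) and than in choroid plexus (1.12 ± 0.28, adjusted p = 0.0065).

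Microglia identity genes were nearly all lower. They were listed because they mark microglia, so that this direction checks the labels. Of 20 tested microglia identity genes, 0 were called higher and 18 lower (0 and 18 without microglia 3), with a median log2 fold change of −4.09. Sall1, a transcription factor of microglia, was at 0.424, 0.981, 0.522 and 1.49 CPM in MHC II-high dura and 483, 272, 355 and 441 CPM in microglia (log2 fold change −8.83 ± 0.34, adjusted p = 2.21e-12, and −9.04 without microglia 3). Its relative Sall3 was at 0.0326, 0, 0 and 0.0787 CPM in MHC II-high dura and 219, 148, 169 and 211 CPM in microglia (a ratio of 6287 (95% interval 2151–30491), adjusted p = 1.92e-14, and a ratio of 14138 (95% interval 2537–558455) without MHC II-high dura 4). Both were nearly without counts in MHC II-high dura. The adhesion receptor Adgrg1 was at 0.815, 2.63, 2.61 and 1.85 CPM in MHC II-high dura and 1725, 1182, 1369.9 and 1515 CPM in microglia (log2 fold change −9.54 ± 0.42, adjusted p = 3.21e-11, and −9.69 without microglia 3). The fructose transporter Slc2a5 was at 1.73, 0, 0.913 and 0.236 CPM in MHC II-high dura and 1059, 807, 950.1 and 869 CPM in microglia (log2 fold change −10.23 ± 0.56, adjusted p = 7.71e-11, and −10.35 without microglia 3 and −11.27 without MHC II-high dura 1).

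Other identity genes stayed at clear levels in the dura cells. P2ry12, an ADP receptor, was at 190.4, 216, 232 and 198 CPM in MHC II-high dura and 6655, 4906, 5948 and 5606 CPM in microglia (log2 fold change −4.79 ± 0.18, adjusted p = 1.16e-14, and −4.92 without microglia 3). Cx3cr1, the fractalkine receptor, was at 1254, 1302, 1269 and 1155 CPM in MHC II-high dura and 6694, 5050.0, 5833 and 5690.1 CPM in microglia (log2 fold change −2.22 ± 0.17, adjusted p = 9.29e-10, and −2.35 without microglia 3). Siglech, a sialic acid binding lectin, fell by 4.26 and the Fc receptor relative Fcrls by 1.38. The groups did not overlap for any of these 4. The transcription factor Sall2 was not called.

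Every border macrophage marker tested was higher. The list was made of genes that mark such cells, with earlier results of these data known. The direction of its calls thus checks the labels, and only the size of each difference is new. Of 23 tested border macrophage markers, 23 were called higher and 0 lower (23 and 0 without microglia 3), with a median log2 fold change of 6.99. Mrc1, the mannose receptor, was at 2507, 3327, 3110.0 and 2745 CPM in MHC II-high dura and 19.8, 16.2, 19.6 and 17.1 CPM in microglia (log2 fold change 7.33 ± 0.23, adjusted p = 1.12e-15, and 7.21 without microglia 3). Pf4, a chemokine, was at 380.0, 653, 666 and 457 CPM in MHC II-high dura and 1.07, 0.556, 0.579 and 0.529 CPM in microglia (log2 fold change 9.62 ± 0.38, adjusted p = 1.73e-13, and 9.47 without microglia 3). Cd163, the hemoglobin scavenger receptor, was at 710.4, 736, 662 and 575 CPM in MHC II-high dura and 1.19, 0.247, 0.232 and 0.0661 CPM in microglia (log2 fold change 10.58 ± 0.35, adjusted p = 6.54e-15, and 10.32 without microglia 3 and 11.73 without microglia 1). Microglia 1 was the highest microglia library for Pf4 and Cd163 and also for Ms4a7 (log2 fold change 9.73 ± 0.32, adjusted p = 4.47e-15, and 9.53 without microglia 3 and 10.46 without microglia 1). F13a1, the A chain of coagulation factor XIII, was at 2805, 3204, 3134 and 2461 CPM in MHC II-high dura and 1.88, 0.185, 0.463 and 0.463 CPM in microglia (log2 fold change 11.92 ± 0.45, adjusted p = 8.57e-14, and 11.53 without microglia 3 and 12.86 without microglia 1), again with microglia 1 highest among the microglia.

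Lyve1, a hyaluronan receptor, was at 96.6, 84.3, 128 and 71.2 CPM in MHC II-high dura and 0.125, 0, 0.232 and 0 CPM in microglia (log2 fold change 9.91 ± 0.40, adjusted p = 1.16e-13, and 9.46 without microglia 3 and a ratio of 2236 (95% interval 619–18464) without microglia 4). Apoe, a lipid carrier, was at 30195, 27753, 27828 and 26254 CPM in MHC II-high dura and 1074, 1114, 1154 and 775 CPM in microglia (log2 fold change 4.77 ± 0.17, adjusted p = 9.16e-15, and 4.74 without microglia 3), and Lyz2, lysozyme, rose by 5.90. Microglia made clear amounts of Apoe and Lyz2, and the groups did not overlap. Siglec1, the sialoadhesin, was at 591, 273, 299 and 448 CPM in MHC II-high dura and 1.25, 1.54, 3.01 and 10.2 CPM in microglia (log2 fold change 6.66 ± 0.87, adjusted p = 6.73e-06, and 6.33 without microglia 3 and 7.62 without microglia 5). Against the other border macrophages these genes were not alike: Lyve1 was lower than in MHC II-low dura (−1.89 ± 0.22, adjusted p = 1.07e-05) and higher than in choroid plexus (4.89 ± 0.26, adjusted p = 1.61e-10). F13a1 was not called against MHC II-low dura (−0.54 ± 0.27, adjusted p = 0.228) and was higher than in choroid plexus (2.71 ± 0.29, adjusted p = 2.77e-06).

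Monocyte and dendritic cell markers were mixed. Of 18 tested monocyte markers, 9 were called higher and 2 lower (9 and 2 without microglia 3, 1 lower without MHC II-high dura 2, 3 or 4 or microglia 1), with a median log2 fold change of 1.43. Ccr2 had the largest rise among them (log2 fold change 8.75 ± 0.46, adjusted p = 2.57e-11, and 8.60 without microglia 3). The calcium binding protein S100a6 was at 15.1, 13.1, 17.6 and 21.6 CPM in MHC II-high dura and 0.313, 0.988, 0.116 and 0.264 CPM in microglia (log2 fold change 5.31 ± 0.41, adjusted p = 1.29e-09, and 6.11 without microglia 3). Ly6c2, a surface marker of classical monocytes, was at 3.1, 0.312, 0.522 and 2.67 CPM in MHC II-high dura and 1.13, 0.0617, 0.0579 and 0.198 CPM in microglia and was not called with all libraries (log2 fold change 2.18 ± 1.17, adjusted p = 0.122, and 1.77 without microglia 3 and 3.86 and called without microglia 1). It was low in all libraries, and the groups overlapped. Ccr2 and S100a6 were also higher than in MHC II-low dura (3.41 and 1.77 on the log2 scale) and choroid plexus (3.69 and 4.27). The list as a whole did not rise over MHC II-low dura, with 3 of 18 markers higher and 3 lower (Chil3, Hp and F10). Its median log2 fold change was 0.05 there. Against choroid plexus 6 were higher and 0 lower (1 lower with DESeq2), with a median of 1.75.

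Of 19 tested dendritic cell markers, 10 were called higher and 4 lower (10 and 4 without microglia 3), with a median log2 fold change of 1.71. Flt3, the growth factor receptor of dendritic cells, was at 3.65, 4.1, 4.65 and 4.6 CPM in MHC II-high dura and 0.627, 0.617, 0.463 and 0.661 CPM in microglia (log2 fold change 2.83 ± 0.69, adjusted p = 0.00173, and 2.79 without microglia 3). Zbtb46, a transcription factor of classical dendritic cells, was at 11.8, 10.3, 10.1 and 8.54 CPM in MHC II-high dura and 4.64, 3.95, 5.04 and 3.63 CPM in microglia (log2 fold change 1.24 ± 0.18, adjusted p = 6.84e-06, and 1.13 without microglia 3). Neither overlapped between the groups. Itgax, the integrin CD11c, was at 55.3, 27.2, 27.6 and 36.7 CPM in MHC II-high dura and 10.3, 7.28, 10.1 and 8.79 CPM in microglia (log2 fold change 2.01 ± 0.44, adjusted p = 0.000878, and 1.84 without microglia 3). Cd209a, a lectin of monocyte-derived dendritic cells, was at 12.8, 21.4, 30.01 and 16.5 CPM in MHC II-high dura and 0, 0.432, 0 and 0 CPM in microglia (log2 fold change 7.47 ± 0.65, adjusted p = 1.64e-08, and at least 315-fold higher without microglia 3). Fscn1, an actin bundling protein of mature dendritic cells that microglia also make, was lower, at 33, 33.9, 23.1 and 26.7 CPM in MHC II-high dura and 750.5, 590.0, 702 and 621 CPM in microglia (log2 fold change −4.51 ± 0.25, adjusted p = 1.44e-11, and −4.63 without microglia 3). Whether dendritic cells were among the cells of the dura libraries was not tested.

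Genes used to recognize macrophages shifted in both directions. Of 14 tested macrophage core genes, 2 were called higher and 5 lower (2 and 6 without microglia 3), with a median log2 fold change of −0.24. Adgre1, the F4/80 antigen, was at 1899, 1913, 1760.2 and 1784 CPM in MHC II-high dura and 564, 387, 502 and 450.3 CPM in microglia (log2 fold change 1.95 ± 0.12, adjusted p = 4.68e-11, and 1.80 without microglia 3). Cd14, a coreceptor for lipopolysaccharide, rose by 1.33. Csf1r, the growth factor receptor that macrophages need, was at 6717, 6770.3, 6378 and 6097 CPM in MHC II-high dura and 15947, 10614, 12759.6 and 14092 CPM in microglia (log2 fold change −1.04 ± 0.16, adjusted p = 2.07e-05, and −1.20 without microglia 3 and −0.9999 and not called without microglia 1). Its fold change lay close to the 2-fold rule. Mertk, a receptor for the uptake of dying cells, was at 138, 142, 126 and 115 CPM in MHC II-high dura and 739.9, 574, 631 and 765 CPM in microglia (log2 fold change −2.38 ± 0.12, adjusted p = 1.99e-12, and −2.51 without microglia 3). The inhibitory receptor Sirpa (−1.37) was lower as well.

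The largest differences were chosen by fold change among genes without overlap between the groups whose higher group averaged 20 CPM or more. Symbols that mark clones, gene models, mitochondrial genes, ribosomal RNA or pseudogenes were passed over. Where one group had no counts, the fold is a lower bound against a floor of 3 counts summed over its libraries. Where it had 1 to 3 counts, a ratio is given with its 95% counting interval. For that ratio, the counts of each group were pooled over its libraries and divided by their pooled size after TMM scaling. The first 3 genes had no counts in any microglia library. Cd209f, a C-type lectin of the DC-SIGN family, was at 251, 285, 262 and 215 CPM in MHC II-high dura (at least 5422-fold higher, adjusted p = 1.85e-14). Its family member Cd209g was at 86, 88.5, 75.9 and 73.8 CPM (at least 1747-fold higher, adjusted p = 7.97e-12). Mmp9, a matrix metalloproteinase, was at 104, 170.0, 239.8 and 116 CPM (at least 3277-fold higher, adjusted p = 6.4e-09).

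Retnla, a secreted resistin-like protein, also had no counts in microglia and was at 87.2, 63.5, 72.4 and 60.4 CPM (at least 1548-fold higher, adjusted p = 2.95e-08). The same held for the activating receptor Klrk1, at 38.5, 15.3, 29.1 and 29 CPM (at least 622-fold higher, adjusted p = 3.04e-05), for the phospholipid flippase Atp8b4, at 29, 24.7, 21.1 and 33.8 CPM (at least 591-fold higher, adjusted p = 1e-10), and for the guanylate binding protein Gbp2b, at 18.1, 32.2, 25 and 18.5 CPM (at least 493-fold higher, adjusted p = 0.000507). The chemokine Ccl8 was at 530.1, 571, 480.4 and 392 CPM in MHC II-high dura and 0.251, 0, 0 and 0 CPM in microglia (log2 fold change 12.83 ± 0.70, adjusted p = 5.92e-11, and 12.39 without microglia 3 and at least 7994-fold higher without microglia 1). Rgs18, a regulator of G protein signalling, was at 85.5, 84.5, 109 and 90.9 CPM in MHC II-high dura and 0.0627, 0, 0 and 0 CPM in microglia (a ratio of 5935 (95% interval 1065–234438), adjusted p = 3.47e-17, and at least 1489-fold higher without microglia 1). Its single microglia count lay in microglia 1. Clec4n, the lectin Dectin-2, was at 163, 154, 184 and 134 CPM in MHC II-high dura and 0, 0.185, 0 and 0 CPM in microglia (a ratio of 3415 (95% interval 1168–16559), adjusted p = 4.47e-15, and at least 2558-fold higher without microglia 3), and Tlr8, a receptor for RNA, was at 149.6, 147, 141 and 139.7 CPM in MHC II-high dura and 0.188, 0, 0 and 0 CPM in microglia (a ratio of 3112 (95% interval 1065–15092), adjusted p = 4.74e-13, and at least 2343-fold higher without microglia 1).

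Among the genes with the largest falls, Nav3, a neuron navigator protein, had no counts in MHC II-high dura and was at 145, 123, 129.6 and 134 CPM in microglia (at least 4490.3-fold lower, adjusted p = 2.89e-07). Csmd3, a large membrane protein with complement control domains, was at 47.9, 45.9, 43.1 and 41.3 CPM (at least 1508-fold lower, adjusted p = 2.46e-08). The sulfotransferase Chst8 was at 37.1, 28.5, 26.2 and 28.9 CPM (at least 1019-fold lower, adjusted p = 3.14e-07), and the myosin Myo18b at 20.2, 15.1, 21.9 and 23.4 CPM (at least 681-fold lower, adjusted p = 1.21e-06). All 4 were without counts in the dura cells and even across the microglia libraries. Ecscr, an endothelial cell surface protein by name, was at 0.228, 0, 0 and 0.236 CPM in MHC II-high dura and 173, 147, 172 and 144 CPM in microglia (log2 fold change −10.23 ± 0.52, adjusted p = 1.61e-10, and −10.33 without microglia 3 and −10.84 without MHC II-high dura 1). The potassium channel Kcnk12 was at 0.326, 0, 0 and 0 CPM in MHC II-high dura and 87.5, 67.5, 89.1 and 67.9 CPM in microglia (log2 fold change −9.58 ± 0.79, adjusted p = 7.97e-08, and −9.71 without microglia 3 and at least 1849-fold lower without MHC II-high dura 1). The protease Adamts16 was at 0.0652, 0, 0 and 0 CPM in MHC II-high dura and 28.7, 27.2, 30.3 and 20.4 CPM in microglia (a ratio of 1361 (95% interval 376–11247), adjusted p = 6.59e-06, and at least 633-fold lower without MHC II-high dura 1), and the uroplakin Upk1b at 0, 0, 0 and 0.551 CPM in MHC II-high dura and between 90.02 and 106 CPM in microglia (log2 fold change −9.43 ± 0.95, adjusted p = 7.34e-06, and −9.49 without microglia 3 and at least 2512-fold lower without MHC II-high dura 4).

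Car12, a carbonic anhydrase, met the same rule but rested on 1 library. It had no counts in MHC II-high dura and was at 0.627, 153, 6.25 and 3.44 CPM in microglia 1, 3, 4 and 5, with microglia 3 far above the rest. It was at least 1387-fold lower, adjusted p = 0.000881, and at least 119-fold lower without microglia 3. In a fit of only the 8 libraries compared, Car12 was not called (adjusted p = 0.0823).

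C-type lectins, receptors for sugars on microbes and dead cells, were nearly all higher. Of 23 tested C-type lectin genes, 22 were called higher and 0 lower (21 and 0 without microglia 3), with a median log2 fold change of 7.33. Clec5a was the gene not called. Clec10a, a galactose-binding lectin, was at 291, 285, 321 and 251 CPM in MHC II-high dura and 0, 0.432, 0 and 0 CPM in microglia (log2 fold change 11.30 ± 0.38, adjusted p = 9.16e-15, and at least 4618-fold higher without microglia 3), and its close relative Mgl2 at 612, 871, 997 and 699 CPM in MHC II-high dura and 0.188, 0.37, 0.405 and 0.198 CPM in microglia (log2 fold change 11.37 ± 0.33, adjusted p = 5.89e-16, and 11.44 without microglia 3). Clec12a, an inhibitory lectin, was at 413, 341, 411 and 432 CPM in MHC II-high dura and 0.439, 0.247, 0.174 and 0.198 CPM in microglia (log2 fold change 10.54 ± 0.49, adjusted p = 2.83e-12, and 10.44 without microglia 3). Microglia had traces at most of these 3. Clec7a, the receptor Dectin-1 for fungal glucans, was present in microglia too, at 291, 289.8, 365 and 323 CPM in MHC II-high dura and 47, 25.1, 45.5 and 31.4 CPM in microglia (log2 fold change 3.09 ± 0.22, adjusted p = 4.31e-10, and 2.87 without microglia 3). The Cd209 and Clec4 genes lie in families of close relatives, so that reads may be split between members.

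Scavenger receptors and the Ms4a family were largely higher. Of 14 tested scavenger receptor genes, 9 were called higher and 1 lower (8 and 1 without microglia 3), with a median log2 fold change of 2.55. Cd36, a receptor for oxidized lipids, was at 634, 685, 861 and 608 CPM in MHC II-high dura and 2.13, 0.432, 0.579 and 1.59 CPM in microglia (log2 fold change 9.21 ± 0.33, adjusted p = 2.45e-14, and 8.87 without microglia 3). Msr1, the scavenger receptor A, rose by 6.68, and Stab1, stabilin, by 2.18. Lrp1, a receptor for many ligands, was the member that fell, by 1.23. All 8 tested Ms4a genes were higher with all libraries and without microglia 3, with a median of 5.40, from Ms4a6b (2.21) to Ms4a7 (9.73, and 10.46 without microglia 1). With DESeq2, and in a fit of only the 8 libraries compared, 7 of them were called. The family includes the B cell gene Ms4a1, whose low levels are given with the B cell genes. Stab1 was lower than in MHC II-low dura (−1.13 ± 0.21, adjusted p = 0.00154).

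Of 9 tested Siglec receptor genes, 2 were called higher and 4 lower (1 and 4 without microglia 3, 1 higher without MHC II-high dura 1 or 4 or microglia 1 or 4), with a median log2 fold change of −0.79. Besides Siglech, Siglecf was lower, at 3.62, 1.2, 1.17 and 1.73 CPM in MHC II-high dura and 52.3, 39.7, 47.2 and 58 CPM in microglia (log2 fold change −4.65 ± 0.36, adjusted p = 1.28e-09, and −4.81 without microglia 3). Siglec1 and Siglecf thus moved in opposite directions, each without overlap.

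Receptors for dying cells fell on both sides. Of 14 tested genes of apoptotic cell uptake, 5 were called higher and 5 lower (5 and 4 without microglia 3), with a median log2 fold change of 0.08. Axl, a receptor tyrosine kinase that binds dying cells through Gas6, was at 2078, 1540.0, 1614 and 1724 CPM in MHC II-high dura and 64, 40.7, 51.3 and 88.5 CPM in microglia (log2 fold change 4.83 ± 0.42, adjusted p = 2.42e-08, and 4.62 without microglia 3). Mertk, its family member, was lower, as given above. Gas6 itself rose by 1.57, while Pros1, protein S, the other bridging ligand, fell by 1.17. Timd4, a receptor for phosphatidylserine, was at 80.5, 77.2, 81.7 and 63.7 CPM in MHC II-high dura and 0.0627, 0.0617, 0 and 0 CPM in microglia (a ratio of 2448 (95% interval 677–20219), adjusted p = 2.65e-12, and a ratio of 3686 (95% interval 661–145627) without microglia 1). The integrin chain Itgb5 (−1.76) and the engulfment adaptor Elmo1 (−1.46) were lower.

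Chemokine ligands were higher except for a pair. Of 19 tested chemokine ligand genes, 17 were called higher and 2 lower (16 and 2 without microglia 3), with a median log2 fold change of 3.77. Ccl7, a monocyte attractant, was at 877, 869.6, 1127 and 958 CPM in MHC II-high dura and 2.82, 2.9, 5.9 and 3.17 CPM in microglia (log2 fold change 8.01 ± 0.55, adjusted p = 1.91e-09, and 7.84 without microglia 3). Ccl2, the main ligand of Ccr2, was at 508, 643, 888 and 762 CPM in MHC II-high dura and 45.8, 42.6, 62.8 and 53.9 CPM in microglia (log2 fold change 3.77 ± 0.35, adjusted p = 4.8e-08, and 3.63 without microglia 3). Cxcl2, a neutrophil attractant, was at 213, 282, 779 and 366 CPM in MHC II-high dura and 11.6, 12.8, 12.6 and 12.9 CPM in microglia (log2 fold change 5.04 ± 0.49, adjusted p = 1.53e-07, and 4.99 without microglia 3), with MHC II-high dura 3 the highest. Cxcl9, an interferon-gamma induced ligand of Cxcr3, was at 68, 95.6, 83.6 and 47.2 CPM in MHC II-high dura and 0, 0.123, 0.521 and 0.463 CPM in microglia (log2 fold change 8.02 ± 0.44, adjusted p = 1.01e-11, and 7.71 without microglia 3). The Ccl genes include close paralogs, which lowers the certainty of single values.

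Ccl3 and Ccl4, inflammatory chemokines, were the pair that was lower. Ccl3 was at 312, 423, 561 and 476 CPM in MHC II-high dura and 937, 992, 1042 and 841 CPM in microglia (log2 fold change −1.11 ± 0.27, adjusted p = 0.00241, and −1.15 without microglia 3), and Ccl4 at 495, 435, 776 and 589 CPM in MHC II-high dura and 1627, 1800.2, 1748 and 1415 CPM in microglia (log2 fold change −1.52 ± 0.32, adjusted p = 0.000599, and −1.54 without microglia 3). The groups did not overlap for either. Of 12 tested chemokine receptor genes, 5 were called higher and 3 lower (5 and 3 without microglia 3), with a median log2 fold change of 2.06. Cxcr4, the receptor for Cxcl12, was at 23, 17.7, 33.7 and 22.8 CPM in MHC II-high dura and 0.313, 0.803, 0.347 and 0.793 CPM in microglia (log2 fold change 5.43 ± 0.51, adjusted p = 3.94e-08, and 5.59 without microglia 3). Ccr1 rose by 2.99 and Cxcr3 by 2.85.

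The 2 interleukin-1 cytokine genes moved in opposite directions. Il1b was at 276, 292, 600.5 and 356 CPM in MHC II-high dura and 26.5, 14.6, 16.2 and 15.4 CPM in microglia (log2 fold change 4.39 ± 0.41, adjusted p = 8.49e-08, and 4.23 without microglia 3), so that each MHC II-high dura library lay above each microglia library. Il1a was at 16, 19.1, 57.6 and 22.1 CPM in MHC II-high dura and 468, 715, 557 and 598 CPM in microglia (log2 fold change −4.35 ± 0.41, adjusted p = 1e-07, and −4.30 without microglia 3 and −5.00 without MHC II-high dura 3), with the order of the groups turned around. MHC II-high dura 3 was the highest of its group for both. Of 20 tested cytokine and inflammasome genes, 5 were called higher and 2 lower (5 and 3 without microglia 3), with a median log2 fold change of −0.11. The anti-inflammatory cytokine Il10 was at 27.7, 33.2, 54.1 and 30.01 CPM in MHC II-high dura and 0, 0.0617, 0 and 0 CPM in microglia (a ratio of 2291 (95% interval 411–90529.8), adjusted p = 5.38e-09, and at least 572-fold higher without microglia 3). Il1rn, the interleukin-1 receptor antagonist, rose by 4.11, and Tnf was not called (−0.63, adjusted p = 0.187). The inflammasome sensor Nlrp3 fell by 1.22 and caspase-1, Casp1, rose by 1.28.

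In complement, the C1q chains were not called while most later components rose. Of 17 tested complement genes, 11 were called higher and 1 lower (11 and 1 without microglia 3), with a median log2 fold change of 2.01. C1qa was at 3962, 3044, 3207 and 3053 CPM in MHC II-high dura and 4089, 3319.7, 4099 and 4177 CPM in microglia (log2 fold change −0.24 ± 0.10, adjusted p = 0.0555, and −0.38 without microglia 3), and its ranges overlapped, as did those of C1qb (−0.18) and C1qc (−0.47). C3, the central component, was at 223, 167, 143 and 152 CPM in MHC II-high dura and 3.39, 1.17, 2.26 and 1.32 CPM in microglia (log2 fold change 6.39 ± 0.38, adjusted p = 9.16e-11, and 6.13 without microglia 3). Cfp, properdin, which stabilizes the convertase of the alternative pathway, was at 481, 464, 544 and 408 CPM in MHC II-high dura and 0.627, 0.432, 0.232 and 0.463 CPM in microglia (log2 fold change 10.07 ± 0.24, adjusted p = 3.47e-17, and 10.01 without microglia 3). C4b rose by 5.63, and 6.37 without microglia 5. Factor B, Cfb, was at 377, 89, 109 and 193 CPM in MHC II-high dura and 3.51, 1.61, 1.22 and 2.25 CPM in microglia (log2 fold change 6.49 ± 0.71, adjusted p = 8.24e-07, and 6.30 without microglia 3 and 5.88 without MHC II-high dura 1), but 79.5% of its exon length lies in other genes, as does 46.9% of that of C2 (5.82). C3 was also higher than in MHC II-low dura (1.21 ± 0.28, adjusted p = 0.00878) and choroid plexus (2.60 ± 0.30, adjusted p = 1.05e-05).

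Fc receptors, Toll-like receptors, purinergic receptors and integrins each had members on both sides. The neonatal Fc receptor Fcgrt was at 981, 871, 893 and 738 CPM in MHC II-high dura and 192, 165, 185 and 166 CPM in microglia (log2 fold change 2.30 ± 0.11, adjusted p = 5e-13, and 2.20 without microglia 3), and Fcgr4 rose by 2.51, whereas Fcrl1 was lower (−3.29). Of 8 tested Fc receptor genes, 3 were called higher and 2 lower (2 and 2 without microglia 3), with a median log2 fold change of 0.52. Of 18 tested innate receptor genes, 5 were called higher and 2 lower (5 and 3 without microglia 3), with a median log2 fold change of 0.24. Tlr1 rose by 1.49 and Ly96, the partner of Tlr4, by 1.29, while Tlr12 fell by 1.29. None of these 3 overlapped between the groups.

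Of 17 tested purinergic signalling genes, 4 were called higher and 7 lower (6 and 7 without microglia 3), with a median log2 fold change of −0.25. P2ry13, an ADP receptor like P2ry12, was at 199, 217, 240.4 and 201 CPM in MHC II-high dura and 2619, 1883, 2056 and 2327 CPM in microglia (log2 fold change −3.37 ± 0.15, adjusted p = 1.5e-13, and −3.51 without microglia 3), and the adenosine receptor Adora3, with 20.9% of its exon length in other genes, at 0.717, 0.401, 1.13 and 1.14 CPM in MHC II-high dura and 39.1, 27.5, 47.2 and 36.9 CPM in microglia (log2 fold change −5.46 ± 0.49, adjusted p = 1.06e-08, and −5.66 without microglia 3). The ATP channel P2rx4 was on the other side, at 337, 285, 240.0 and 251 CPM in MHC II-high dura and 85.9, 57, 74.7 and 78 CPM in microglia (log2 fold change 1.91 ± 0.13, adjusted p = 2.69e-10, and 1.74 without microglia 3). Of 17 tested integrin and adhesion genes, 4 were called higher and 7 lower (4 and 6 without microglia 3), with a median log2 fold change of −0.36. Itga4, the chain of VLA-4, was at 97, 125, 113 and 90.8 CPM in MHC II-high dura and 1.88, 0.803, 0.753 and 1.06 CPM in microglia (log2 fold change 6.57 ± 0.29, adjusted p = 2.92e-13, and 6.37 without microglia 3). Itgal, the chain of LFA-1, rose by 6.21 and Itgb7 by 3.61, and Itgb3 was lower, at 1.66, 3.03, 2.09 and 4.01 CPM in MHC II-high dura and 121, 76.3, 79.7 and 84.5 CPM in microglia (log2 fold change −5.07 ± 0.44, adjusted p = 1.88e-08, and −5.21 without microglia 3). Itga4, Itgal and Itgb7, integrin chains of circulating leukocytes, were thus at low levels in microglia, and Itgb3 in MHC II-high dura.

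Interferon response genes were higher, with microglia 5 apart from the other microglia. Of 16 tested interferon response genes, 16 were called higher and 0 lower (13 and 0 without microglia 3), with a median log2 fold change of 2.79. Their summed level was 5003, 1607, 3106 and 3129 CPM in MHC II-high dura and 299, 247, 302 and 1691 CPM in microglia. Microglia 5 lay above the lowest dura library, MHC II-high dura 2, so that the summed levels of the groups overlapped. The antiviral gene Rsad2 was at 169, 54, 179.8 and 119.5 CPM in MHC II-high dura and 4.01, 2.53, 4.4 and 22.5 CPM in microglia (log2 fold change 3.98 ± 0.73, adjusted p = 0.000218, and 3.62 without microglia 3 and 5.09 without microglia 5), and Ifit1 at 135, 39.3, 127 and 96.4 CPM in MHC II-high dura and 3.76, 3.02, 4.34 and 26 CPM in microglia (log2 fold change 3.43 ± 0.71, adjusted p = 0.000683, and 3.09 without microglia 3 and 4.67 without microglia 5). Microglia 5 was several times above the other microglia for both, and the groups did not overlap. Within the 8 libraries alone, 11 of the 16 genes were called. Against MHC II-low dura and choroid plexus, 0 of the 16 genes were called by edgeR or DESeq2, and 0 and 1 had an unadjusted p under 0.05.

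**Figure D3:**
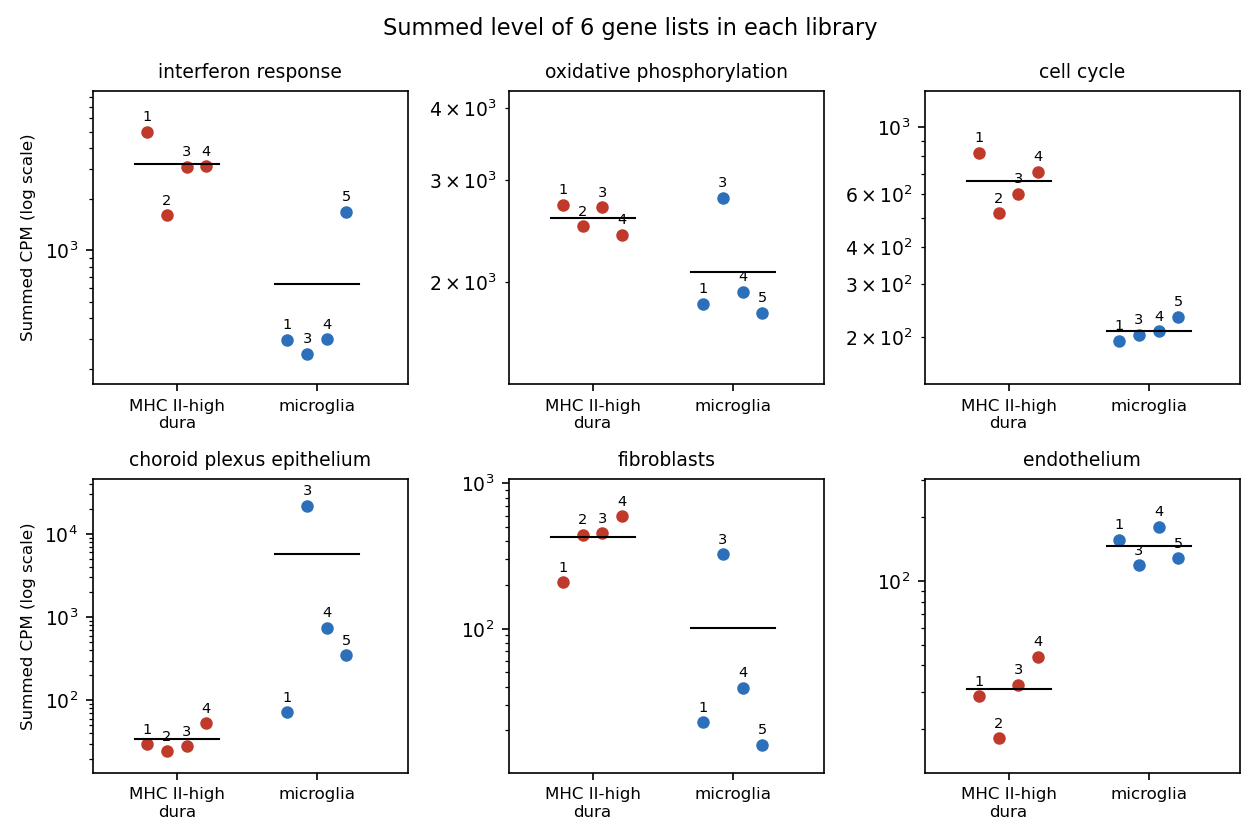
Summed level of 6 gene lists in each library (points with the library number, CPM, log scales that differ between panels), with lines at the group means of 4 MHC II-high dura (red) and 4 microglia libraries (blue). Microglia 5 stands apart in the interferon response with 1691 CPM, and microglia 3 in oxidative phosphorylation with 2797 CPM, in choroid plexus epithelium with 21681 CPM and in fibroblast genes with 325 CPM, while the cell cycle and endothelium panels show no overlap between the groups.

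Of 15 tested interferon-gamma and GTPase genes, 11 were called higher and 0 lower (8 and 0 without microglia 3), with a median log2 fold change of 1.67. Iigp1, an immunity-related GTPase, was at 343, 164, 203 and 169 CPM in MHC II-high dura and 1.57, 0.864, 1.68 and 3.63 CPM in microglia (log2 fold change 6.83 ± 1.15, adjusted p = 9.35e-05, and 6.52 without microglia 3), and all dura libraries lay far above the microglia. The summed level of the list, 3122, 2386, 2801 and 2418 CPM in MHC II-high dura and 2639.5, 1534, 1932 and 2268 CPM in microglia, overlapped between the groups.

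Transcription factors differed in both directions, with a few large differences. Of 35 tested macrophage transcription factors, 12 were called higher and 5 lower (11 and 7 without microglia 3), with a median log2 fold change of −0.04. Runx3, a factor of lymphocytes and some macrophages, was at 32.1, 23.3, 25.3 and 25.1 CPM in MHC II-high dura and 0.313, 0.0617, 0.0579 and 0 CPM in microglia (log2 fold change 7.86 ± 0.44, adjusted p = 8.38e-12, and 7.61 without microglia 3 and a ratio of 653 (95% interval 181–5396) without microglia 1). Pparg, the lipid sensing nuclear receptor, was at 29.6, 23.5, 24.7 and 39.5 CPM in MHC II-high dura and 0, 0.556, 0.174 and 0.0661 CPM in microglia (log2 fold change 7.15 ± 0.52, adjusted p = 7.25e-10, and 8.32 without microglia 3). Spic, a relative of Spi1 that acts in iron-handling macrophages, was at 18.4, 27.8, 20.8 and 20.7 CPM in MHC II-high dura and 0, 0, 0 and 0.132 CPM in microglia (a ratio of 696 (95% interval 193–5754), adjusted p = 1.5e-11, and at least 355-fold higher without microglia 5). These 3 were near 0 in microglia. Tfec, of the MiT family, rose by 4.68. Lower were Klf2 (−1.66), Id2 (−1.52), Smad3 (−1.86) and Atf3 (−1.18). Irf8, a lineage factor, was at 583, 498, 475 and 503 CPM in MHC II-high dura and 983, 870.0, 1019 and 1073 CPM in microglia and just short of the 2-fold rule with all libraries (log2 fold change −0.94 ± 0.10, adjusted p = 1.05e-07, and −1.05 and called without MHC II-high dura 1 and −1.06 and called without microglia 3).

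Genes of TGF-beta signalling, a pathway that microglia depend on, tended to be lower. Of 19 tested genes of TGF-beta and BMP signalling, 1 was called higher and 8 lower (1 and 9 without microglia 3, 2 higher without MHC II-high dura 2 or 4), with a median log2 fold change of −0.93. Smad7, an inhibitor that the pathway itself induces, was at 23, 18.1, 26.7 and 19.8 CPM in MHC II-high dura and 378, 297, 346 and 479.6 CPM in microglia (log2 fold change −4.10 ± 0.37, adjusted p = 3.67e-08, and −4.26 without microglia 3). Tgfbr1, the type I receptor, was at 674, 741, 655 and 649 CPM in MHC II-high dura and 2732, 1765, 2101 and 2598 CPM in microglia (log2 fold change −1.76 ± 0.16, adjusted p = 9.07e-09, and −1.93 without microglia 3), and the coreceptor Eng fell by 1.47. Each lay lower in all dura libraries. Tgfbr2, the type II receptor, was not called (0.04, adjusted p = 0.824), and Acvrl1, a receptor for BMP ligands, rose by 1.60.

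Growth factor genes differed in both directions. Of 17 tested genes of CSF and growth factor signalling, 4 were called higher and 6 lower (3 and 5 without microglia 3), with a median log2 fold change of −0.77. Igf1, an insulin-like growth factor, was at 227, 321, 263 and 253 CPM in MHC II-high dura and 1.32, 1.11, 1.1 and 0.727 CPM in microglia (log2 fold change 7.95 ± 0.36, adjusted p = 1.34e-12, and 7.91 without microglia 3). Csf1, the ligand of Csf1r, was at 23.5, 13, 18.7 and 21.6 CPM in MHC II-high dura and 160.1, 152, 130.2 and 213 CPM in microglia (log2 fold change −3.09 ± 0.27, adjusted p = 1.42e-08, and −3.19 without microglia 3), and Tgfa, a ligand of the EGF receptor, at 5.67, 4.99, 3.52 and 1.97 CPM in MHC II-high dura and 204, 166, 195 and 222 CPM in microglia (log2 fold change −5.60 ± 0.34, adjusted p = 1.15e-10, and −5.74 without microglia 3). Igf1 was high in the dura cells and the other 2 genes in microglia, without overlap. Csf2ra, the GM-CSF receptor chain, rose by 1.66, and Csf3r, the G-CSF receptor, fell by 2.31.

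Among cathepsins, proteases that cut ingested proteins, more genes were lower than higher. Of 15 tested genes of cathepsins and their inhibitors, 2 were called higher and 6 lower (3 and 8 without microglia 3), with a median log2 fold change of −0.83. Ctsd, an aspartic protease, was at 2073, 2090.5, 1863 and 1838 CPM in MHC II-high dura and 19342, 15304, 18482 and 16630.5 CPM in microglia (log2 fold change −3.15 ± 0.11, adjusted p = 7.51e-15, and −3.27 without microglia 3). Cst3, the inhibitor cystatin C, was at 3149, 2905, 3081 and 2884 CPM in MHC II-high dura and 19104, 16857, 20543 and 17992 CPM in microglia (log2 fold change −2.63 ± 0.09, adjusted p = 6.79e-15, and −2.74 without microglia 3). Ctsl, a cysteine protease, fell by 2.22, and 34.4% of the exon length of Ctsd and 26.8% of that of Ctsl lie in other genes. Ctsc, which activates serine proteases, was at 4124, 3830.0, 3859 and 3546 CPM in MHC II-high dura and 818, 574, 753 and 877 CPM in microglia (log2 fold change 2.35 ± 0.13, adjusted p = 8.11e-12, and 2.17 without microglia 3). The groups did not overlap for any of these 4. Of the lysosome genes, 2 of 20 were higher and 2 lower (2 and 2 without microglia 3), with Lipa, the acid lipase, among the higher (1.56).

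Lipid handling genes were mostly higher. Of 19 tested lipid handling genes, 13 were called higher and 2 lower (13 and 1 without microglia 3), with a median log2 fold change of 2.30, or 1.93 with genes without counts in a group at their bound. Pltp, a phospholipid transfer protein, was at 1372, 1024, 1081 and 1097 CPM in MHC II-high dura and 51, 112, 47.9 and 22.9 CPM in microglia (log2 fold change 4.29 ± 0.34, adjusted p = 6.36e-09, and 4.74 without microglia 3), and lipoprotein lipase, Lpl, at 396, 439, 626 and 539 CPM in MHC II-high dura and 68.1, 41.8, 54.5 and 43.5 CPM in microglia (log2 fold change 3.27 ± 0.25, adjusted p = 1.82e-09, and 3.11 without microglia 3). Ch25h, which makes 25-hydroxycholesterol, rose by 5.22, and 6.11 without microglia 4. Trem2, a lipid-sensing receptor, was lower, at 232, 208, 216 and 189.7 CPM in MHC II-high dura and 1259, 1117, 1304 and 1087 CPM in microglia (log2 fold change −2.50 ± 0.25, adjusted p = 9.05e-08, and −2.59 without microglia 3). Trem2 and Apoe thus differed in direction. Of 18 tested genes raised in disease-associated microglia, 10 were called higher and 5 lower (11 and 5 without microglia 3), with a median log2 fold change of 2.02. Besides Apoe and Lpl, the osteopontin gene Spp1 was higher (2.94), as was the galectin Lgals3 (4.24), while Cd9, a tetraspanin, was lower (−3.35).

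Of 17 tested iron and heme genes, 7 were called higher and 0 lower (7 and 0 without microglia 3), with a median log2 fold change of 0.81. Blvrb, a biliverdin reductase, was at 116, 137, 145 and 103 CPM in MHC II-high dura and 14.9, 14, 15.4 and 13.9 CPM in microglia (log2 fold change 3.11 ± 0.15, adjusted p = 1.06e-12, and 3.02 without microglia 3), and Cp, the ferroxidase ceruloplasmin, rose by 4.66. Neither overlapped. Slc40a1, the iron exporter, was at 193, 378, 276 and 159 CPM in MHC II-high dura and 282, 184, 265 and 252 CPM in microglia and was not called (log2 fold change 0.03 ± 0.22, adjusted p = 0.914, and −0.15 without microglia 3). Of 14 tested matrix protease genes, 6 were called higher and 3 lower (6 and 3 without microglia 3), with a median log2 fold change of 1.46, or 0.74 with genes without counts in a group at their bound. Adamts1, a secreted protease, was at 6.78, 5.44, 8.83 and 19.6 CPM in MHC II-high dura and 1249, 1095, 1086 and 1088 CPM in microglia (log2 fold change −6.80 ± 0.46, adjusted p = 1.25e-08, and −6.88 without microglia 3), and Mmp13, a collagenase, was at 47.6, 58.5, 163 and 55.1 CPM in MHC II-high dura and 0, 0.185, 0 and 0 CPM in microglia (a ratio of 1678 (95% interval 574–8139), adjusted p = 7.09e-08, and at least 1257-fold higher without microglia 3). These 2 and Mmp9 stood far apart between the groups in all libraries.

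Of 15 tested genes of eicosanoids and lipid mediators, 5 were called higher and 2 lower (6 and 2 without microglia 3), with a median log2 fold change of 0.76. The 2 cyclooxygenases changed in opposite directions: Ptgs1 was at 174, 212, 238 and 158 CPM in MHC II-high dura and 1628, 1222, 1365 and 1470.0 CPM in microglia (log2 fold change −2.86 ± 0.15, adjusted p = 4.15e-12, and −2.99 without microglia 3), and the inducible Ptgs2 at 49.2, 35.2, 109.7 and 71 CPM in MHC II-high dura and 16, 13.8, 13.1 and 11.1 CPM in microglia (log2 fold change 2.30 ± 0.42, adjusted p = 0.000208, and 2.24 without microglia 3). Ptger4, a prostaglandin E2 receptor, rose by 3.79. Of 14 tested genes of alternative activation, 8 were called higher and 2 lower (8 and 3 without microglia 3, 1 lower without MHC II-high dura 2, 3 or 4), with a median log2 fold change of 3.14. Besides Retnla, the attractant of eosinophils Ccl24 was higher, at 74.5, 96.9, 78.5 and 80.5 CPM in MHC II-high dura and 2.01, 2.22, 3.99 and 2.25 CPM in microglia (log2 fold change 4.97 ± 0.30, adjusted p = 8.21e-11, and 4.83 without microglia 3).

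Of 13 tested genes of S100 proteins, annexins and galectins, 11 were called higher and 1 lower (11 and 1 without microglia 3), with a median log2 fold change of 3.38. Anxa1, an annexin with anti-inflammatory action, was at 41.9, 32.4, 59.4 and 44.3 CPM in MHC II-high dura and 0.313, 1.98, 1.62 and 0.727 CPM in microglia (log2 fold change 5.24 ± 0.33, adjusted p = 1.55e-10, and 5.55 without microglia 3), and Lgals1, galectin-1, at 189, 186, 207 and 168 CPM in MHC II-high dura and 1.13, 19.6, 2.37 and 1.52 CPM in microglia (log2 fold change 4.93 ± 0.68, adjusted p = 1.29e-05, and 6.72 without microglia 3). Microglia 3 held far more Lgals1 than the other microglia, and Anxa1 and Lgals1 still did not overlap between the groups. Anxa3 was the gene that was lower (−1.71). Of 13 tested coagulation and fibrinolysis genes, 3 were called higher and 1 lower (4 and 2 without microglia 3, 2 lower without MHC II-high dura 2), with a median log2 fold change of 0.66. Thbd, thrombomodulin, rose by 3.81.

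Genes of energy metabolism had small differences in most cases. Of 19 tested genes of glycolysis and sugar transport, 4 were called higher and 5 lower (5 and 5 without microglia 3, 2 higher without microglia 4), with a median log2 fold change of −0.08. The glucose transporter Slc2a1 was at 24.6, 20.3, 22.5 and 19.8 CPM in MHC II-high dura and 159, 138, 155 and 133 CPM in microglia (log2 fold change −2.74 ± 0.13, adjusted p = 5.68e-13, and −2.84 without microglia 3), and hexokinase 2, Hk2, fell by 1.87. Of 18 tested genes of oxidative phosphorylation, 4 were called higher and 0 lower (8 and 0 without microglia 3, 2 higher without MHC II-high dura 3 or microglia 4, 1 higher without microglia 1 or 5), with a median log2 fold change of 0.48. Their summed level was 2721, 2499, 2694 and 2412 CPM in MHC II-high dura and 1831, 2797, 1923 and 1767 CPM in microglia, with microglia 3 above each of the dura libraries. Cox5a, a subunit of cytochrome oxidase, was at 98.5, 90.1, 99.8 and 84.3 CPM in MHC II-high dura and 29.3, 53.4, 34.9 and 31 CPM in microglia (log2 fold change 1.33 ± 0.17, adjusted p = 1.19e-06, and 1.49 without microglia 3). Of 17 tested cholesterol synthesis genes, 0 were called higher and 1 lower (1 and 0 without microglia 3, 2 lower without MHC II-high dura 1), with a median log2 fold change of −0.30.

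Cell cycle genes were higher. Of 16 tested cell cycle genes, 13 were called higher and 0 lower (13 and 0 without microglia 3), with a median log2 fold change of 3.80. Top2a, a topoisomerase of dividing cells, was at 67.4, 40.04, 42 and 71.4 CPM in MHC II-high dura and 2.7, 1.42, 2.43 and 3.04 CPM in microglia (log2 fold change 4.53 ± 0.44, adjusted p = 1.1e-07, and 4.28 without microglia 3), and Mki67, the Ki-67 antigen, was at 40.7, 18, 28.3 and 48.9 CPM in MHC II-high dura and 2.01, 1.11, 1.56 and 2.71 CPM in microglia (log2 fold change 4.20 ± 0.45, adjusted p = 3.06e-07, and 3.96 without microglia 3). The groups did not overlap for either. Their summed level was 823, 519, 602 and 711 CPM in MHC II-high dura and 195, 204, 209.8 and 234 CPM in microglia. Against choroid plexus macrophages 9 of the genes were higher, and against MHC II-low dura 1.

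Of 17 tested immediate early and heat shock genes, 5 were called higher and 1 lower (5 and 1 without microglia 3, 3 higher without MHC II-high dura 1 or 3 or microglia 1), with a median log2 fold change of 0.16. Hspa1b, an inducible heat shock protein, was at 758, 339, 1134 and 761 CPM in MHC II-high dura and 32.7, 14.1, 14 and 16.9 CPM in microglia (log2 fold change 5.27 ± 0.55, adjusted p = 4.76e-07, and 5.08 without microglia 3), and its near copy Hspa1a rose by 3.54. Reads of the pair can be split between them. Egr2, an early growth response factor, was at 386, 382, 467 and 409 CPM in MHC II-high dura and 58, 79.5, 81.7 and 80.1 CPM in microglia (log2 fold change 2.46 ± 0.39, adjusted p = 4.2e-05, and 2.42 without microglia 3). Handling of cells can move such genes, and the labels used here do not describe it, so its part was not tested. The summed level of the list was 47489, 44908, 50175 and 45644 CPM in MHC II-high dura and 51525, 53878, 61106 and 57792 CPM in microglia, which is lower in each dura library than in each microglia library although more members rose than fell.

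**Figure D4:**
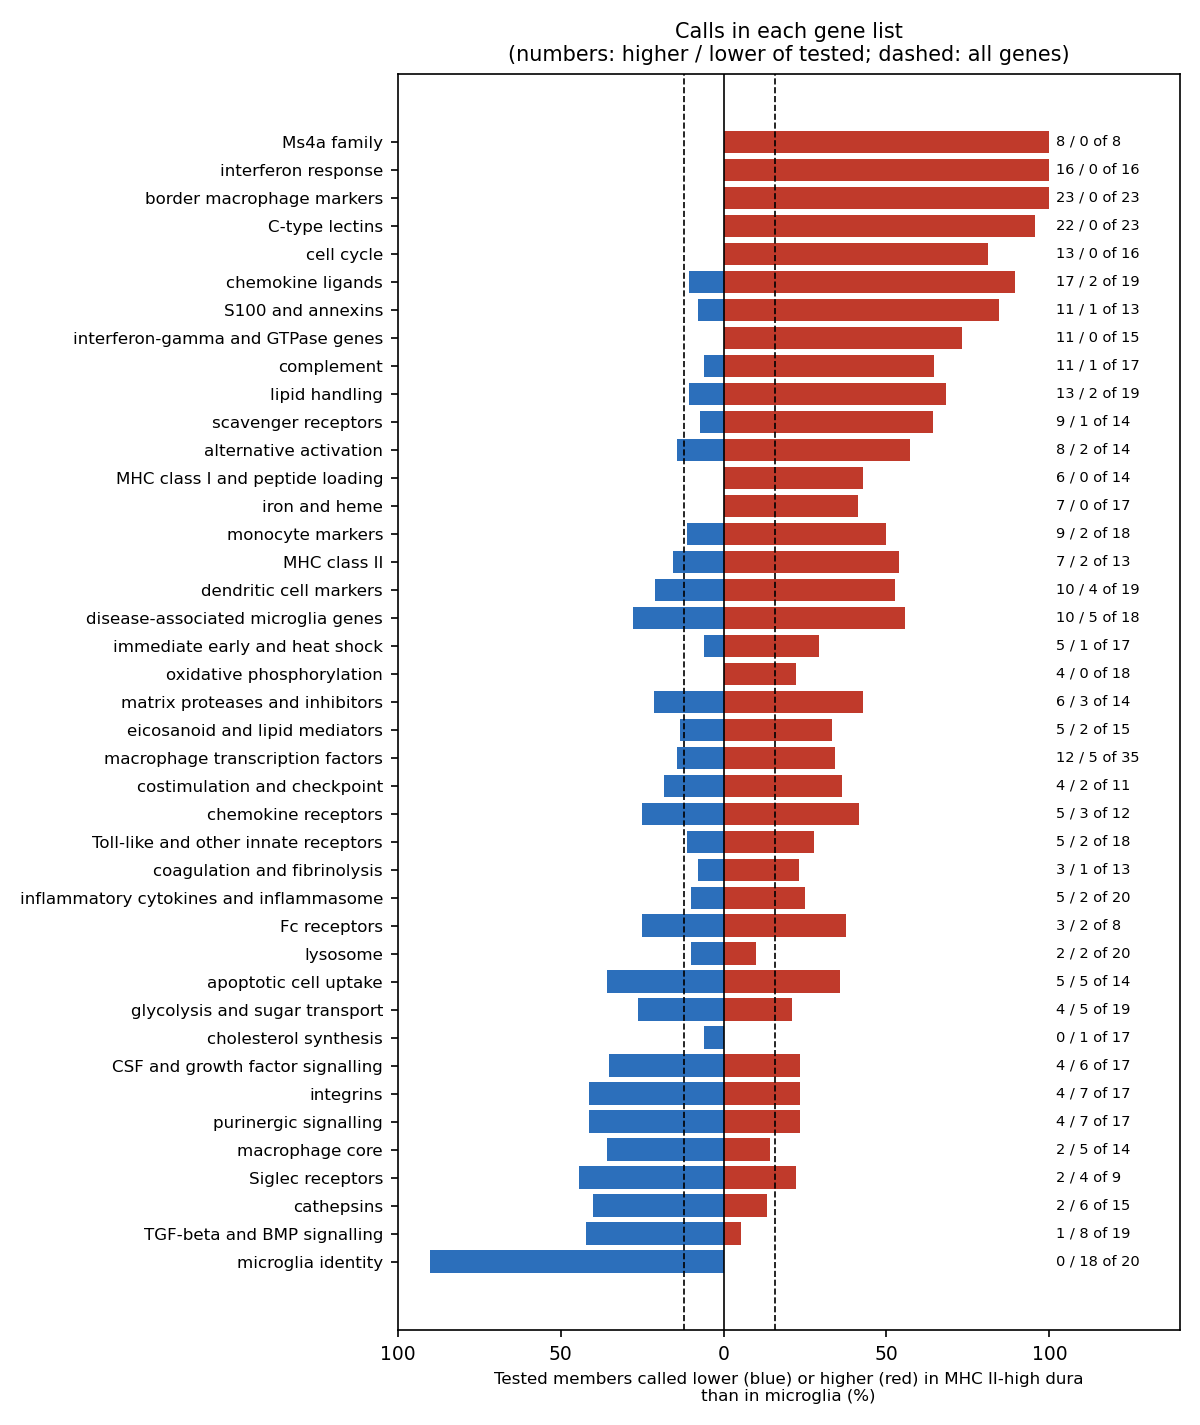
Share of the tested members of each gene list, apart from the 13 lists of other cell types, that were called in MHC II-high dura against microglia, in percent. Members called higher are red (right) and those called lower blue (left). The counts stand at the right, and dashed lines mark the shares of all tested genes, 15.7% and 12.2%. The Ms4a family, the interferon response and the border macrophage markers are at the top with every tested member higher, and microglia identity is at the bottom with 18 of 20 lower. The border macrophage and microglia identity lists were chosen as markers, so that their directions check the labels.

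The direct contrasts, which share the MHC II-high dura libraries, were used to ask which differences from microglia set MHC II-high dura apart from the other border macrophages too. Called in 1 direction against microglia, MHC II-low dura and choroid plexus alike were 85 genes (0.609%) higher and 57 (0.408%) lower. Ccr2 was at 1132 ± 87.9 CPM (mean ± SD, n = 4) in MHC II-high dura, 106 ± 19.6 in MHC II-low dura, 87.6 ± 25.3 in choroid plexus and 2.64 ± 0.718 in microglia. Retnla was at 70.9 ± 12, 5.89 ± 2.05 and 0.775 ± 1.02 CPM in the border groups in that order, with no counts in microglia. Clec4b1, a lectin of the Dcir family, was at 59.98 ± 9.13, 9.98 ± 2.16, 8.56 ± 0.942 and 0.0446 ± 0.0559 CPM in the same order of groups, and Itgax at 36.7 ± 13.1, 6.14 ± 1.61, 3.56 ± 0.697 and 9.14 ± 1.41 CPM. These 4 genes and the further ones below were chosen from the 85 higher and 57 lower genes. That each contrast was past the test thus follows from the choice and is no separate result.

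Kcnn4, a calcium-activated potassium channel, was at 50.4 ± 16 CPM in MHC II-high dura, 9.02 ± 2.83 in MHC II-low dura, 7.3 ± 2.05 in choroid plexus and 4.83 ± 0.242 in microglia. Rasgrp1, an activator of Ras, was at 28.2 ± 3.7, 4.26 ± 2.89, 5.11 ± 1.63 and 0.473 ± 0.526 CPM, and Lgals3 at 149.6 ± 49.96, 39.3 ± 3.24, 15 ± 0.23 and 7.89 ± 3.31 CPM. The extracellular protein Olfm1 was at 76.2 ± 13.2, 9.39 ± 1.24, 10.6 ± 3.37 and 4.1 ± 6.45 CPM, where microglia 3 held most of the microglial counts (log2 fold change 4.21 ± 0.71, adjusted p = 9.51e-05, and 6.35 without microglia 3). DESeq2 gave no adjusted p for Olfm1.

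Among the genes lower than in all 3 groups, Nav3 had 1.12 ± 0.897 CPM in MHC II-low dura and 2.33 ± 0.28 CPM in choroid plexus, against none in MHC II-high dura. Slc2a5 was at 0.719 ± 0.776 CPM in MHC II-high dura, 10.3 ± 2.89 in MHC II-low dura and 2.49 ± 0.544 in choroid plexus. Spry1, an inhibitor of growth factor signalling, was at 9.99 ± 2.15, 31.7 ± 5.29, 50.6 ± 18.5 and 69.1 ± 6.63 CPM from MHC II-high dura to microglia, and the ubiquitin ligase Rnf128 at 0.777 ± 0.852, 4.25 ± 0.992, 5.82 ± 1.56 and 59.3 ± 7.98 CPM. Of the exon length of Spry1, 24.4% lies in other genes, and of that of Myadml2, 30.4%. Chst8, Ecscr, Kcnk12 and Myadml2 made up the rest of the 8 by the rule, with means of at most 1.27 CPM in every border group. Several of these genes were thus at traces in the other border macrophages, and the size of the difference among border groups rests on few counts.

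**Figure D5:**
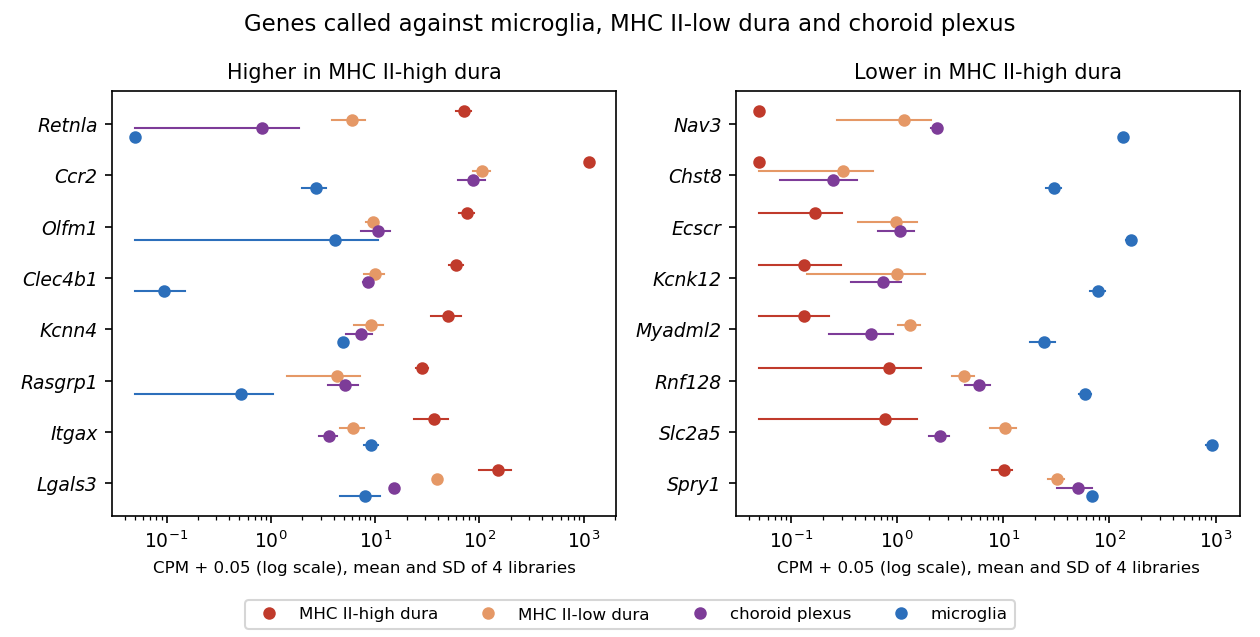
Mean (points) and SD (bars, cut at 0) of 4 libraries for 8 genes higher (left) and 8 genes lower (right) in MHC II-high dura than in each of the other 3 groups, in CPM + 0.05 on log scales. Ccr2 lies at 1132 CPM in MHC II-high dura against 106 CPM or less elsewhere. At the right, Chst8, Ecscr, Kcnk12 and Myadml2 have means of at most 1.27 CPM in every border group.

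Markers of other cell types were measured in 13 lists. Choroid plexus epithelium genes were lower in MHC II-high dura for 12 of 15 tested, and for 9 without microglia 3, when 1 was higher. Ttr, transthyretin, was at 5.09, 2.94, 7.09 and 10.4 CPM in MHC II-high dura and 45, 9725, 338 and 147 CPM in microglia (log2 fold change −8.65 ± 1.71, adjusted p = 0.000791, and −4.86 without microglia 3). Its level in microglia 3 was far above that in the other 7 libraries. Fibroblast genes had summed levels of 209.6, 443, 455 and 597 CPM in MHC II-high dura and 22.7, 325, 39.3 and 15.9 CPM in microglia, and 6 of 10 were higher, or 9 without microglia 3. Col1a1, a collagen chain, was at 47.3, 77.7, 85.8 and 65.4 CPM in MHC II-high dura and 0.313, 19.2, 0.405 and 0.132 CPM in microglia (log2 fold change 3.78 ± 0.88, adjusted p = 0.0018, and 7.81 without microglia 3). Fibroblast RNA was thus measurable in all 4 dura libraries, and its part in the differences was not tested.

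Endothelial genes ran the other way, with summed levels of 28.6, 18.1, 32.4 and 43.8 CPM in MHC II-high dura and 157, 119, 180.3 and 128 CPM in microglia and 6 of 10 lower (6 without microglia 3). Pecam1, an adhesion protein of endothelium that some macrophages make, was at 2.84, 2.59, 4.61 and 6.49 CPM in MHC II-high dura and 41.1, 34.9, 46.3 and 41.2 CPM in microglia (log2 fold change −3.31 ± 0.31, adjusted p = 2.07e-08, and −3.44 without microglia 3). Of the T and NK cell genes, Cd3e had no counts in the 8 libraries. Cd4, which macrophages can also make, was at 137, 139, 114 and 106 CPM in MHC II-high dura and 0.313, 0.309, 0.289 and 0.198 CPM in microglia (log2 fold change 8.77 ± 0.30, adjusted p = 6.54e-15, and 8.76 without microglia 3). Neither Cd3e nor Nkg7, an NK cell gene, had counts in MHC II-high dura, and Il7r, an interleukin receptor of lymphocytes, was at 1.14, 1.34, 1.35 and 4.72 CPM in MHC II-high dura and 25.6, 18.3, 27.8 and 28.8 CPM in microglia (log2 fold change −3.55 ± 0.65, adjusted p = 0.000147, and −3.74 without microglia 3 and −4.30 without MHC II-high dura 4).

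B cell genes summed to 39–55.5 CPM in MHC II-high dura and 31.2–45.6 CPM in microglia, most of it Cd79b. Of 5 tested B cell genes, 3 were called higher and 0 lower (1 and 0 without microglia 3, 1 higher without MHC II-high dura 3 or 4 or microglia 1, 4 or 5), with a median log2 fold change of 2.33. Ms4a1 and Cd79a were among those called, and each was highest in MHC II-high dura 3. Ms4a1, the B cell antigen CD20, was at 0.228, 1.43, 5.83 and 1.26 CPM in MHC II-high dura and 0.125, 0, 0 and 0 CPM in microglia (a ratio of 65.2 (95% interval 17.8–542), adjusted p = 0.00183, and a ratio of 29.2 (95% interval 7.79–246) without MHC II-high dura 3 and at least 32.7-fold higher without microglia 1). Cd79a, a chain of the B cell receptor, was not called where any 1 of MHC II-high dura 3 and 4 and the microglia libraries was left out. Pax5, the B cell factor, had no counts in either group. Neutrophil genes summed to 0.782–3.39 and 1.23–2.25 CPM with 0 of 2 tested called in either direction, and the granule genes Mpo and Elane had no counts.

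Mast cell genes summed to 1.25–4.83 CPM in MHC II-high dura and 0.198–7.16 CPM in microglia. Of 4 tested mast cell genes, 2 were called higher and 0 lower (1 and 0 without microglia 3, 1 higher without MHC II-high dura 3 or microglia 1, 4 or 5), with a median log2 fold change of 3.24, or 1.64 with genes without counts in a group at their bound. The 2 called, the proteases Tpsb2 and Cma1, had no counts in microglia. Tpsb2 was at 0.196, 0.178, 1.44 and 0.393 CPM in MHC II-high dura (at least 11.2-fold higher, adjusted p = 0.0163, and at least 5.48-fold higher and not called without MHC II-high dura 3). Cma1 was at 0, 0.624, 0.565 and 0.236 CPM (at least 7-fold higher, adjusted p = 0.0345, and not called without MHC II-high dura 2 or 3 or without any 1 of the microglia libraries). The proteases Cpa3 and Mcpt4 were not tested and also had counts in MHC II-high dura only, while Fcer1a and Ms4a2, chains of the IgE receptor, had no counts in the 8 libraries.

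Genes of red cells summed to 2.71–7.63 CPM in MHC II-high dura and 0–0.988 CPM in microglia. Alas2, an enzyme of heme synthesis in red cells, was the 1 gene of that list tested and was higher, at 5.9, 5.17, 4.57 and 2.05 CPM in MHC II-high dura and 0.188, 0.556, 0 and 0 CPM in microglia (log2 fold change 4.53 ± 1.23, adjusted p = 0.00425, and a ratio of 72.1 (95% interval 24.5–351) without microglia 3). The globin genes Hba-a1, Hba-a2 and Hbb-bt had no counts, and Hbb-bs had 1 count. Neuron genes summed to 1.78–10.4 and 3.11–4.17 CPM. Of 5 tested neuron genes, 1 was called higher and 0 lower (1 and 0 without microglia 3, 0 higher without MHC II-high dura 1 or microglia 1 or 5), with a median log2 fold change of 1.32. The neuron gene called was Map2. Apart from Cd79b, no gene of these 5 lists was above 5.9 CPM in any of the 8 libraries, and their part in the differences was not tested.

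Astrocyte genes summed to 41, 40.3, 36.1 and 138 CPM in MHC II-high dura and 155, 862, 158 and 173 CPM in microglia, with microglia 3 the highest. Of 10 tested astrocyte genes, 2 were called higher and 4 lower (3 and 2 without microglia 3), with a median log2 fold change of −1.29. Slc1a3, a glutamate transporter, made up most of that sum in the other microglia, at 2.45, 0.936, 1.35 and 1.02 CPM in MHC II-high dura and 134, 98.2, 110.2 and 148 CPM in microglia (log2 fold change −6.38 ± 0.34, adjusted p = 1.15e-10, and −6.54 without microglia 3). Oligodendrocyte genes summed to 202–286 CPM in MHC II-high dura and 184–223 CPM in microglia, which overlap. Of 8 tested oligodendrocyte genes, 1 was called higher and 1 lower (2 and 1 without microglia 3, 0 higher without MHC II-high dura 3 or 4 or microglia 4 or 5, 2 lower without MHC II-high dura 3), with a median log2 fold change of 0.31. Genes of osteoclasts and bone summed to 23.9–39.2 and 0.0627–2.59 CPM. Of 4 tested osteoclast and bone genes, 2 were called higher and 0 lower (3 and 0 without microglia 3, 1 higher without MHC II-high dura 1 or 2 or microglia 1, 4 or 5), with a median log2 fold change of 2.77. Acp5, the phosphatase TRAP of osteoclasts and some macrophages, rose by 6.23. Sp7, a transcription factor of osteoblasts, was at 1.08, 1.34, 0.217 and 1.46 CPM in MHC II-high dura and 0, 0.556, 0 and 0.0661 CPM in microglia (log2 fold change 2.68 ± 1.09, adjusted p = 0.0486, and 2.24–2.61 and not called without MHC II-high dura 1, 2 or 4 or microglia 1, 4 or 5). Without microglia 3, Sp7 stood at a ratio of 50.02 (95% interval 8.78–1994). Ibsp and Bglap, genes of the bone matrix, were not tested and had counts in MHC II-high dura only, with Ibsp at 0.782, 2.05, 0.087 and 0.197 CPM (at least 16.3-fold higher, and at least 8.44-fold higher without MHC II-high dura 2). Calcr, the calcitonin receptor, had no counts in the 8 libraries. The part of these genes in the differences was not tested.

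Mesothelium genes summed to 0.087–6.14 and 91.7–108 CPM, of which Upk1b made up nearly all in microglia, and Wt1, a factor of mesothelium, had no counts in either group. Of 3 tested mesothelium genes, 1 was called higher and 2 lower (1 and 2 without microglia 3), with a median log2 fold change of −7.73, or −5.33 with genes without counts in a group at their bound.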

How the data were processed

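RNA of macrophage populations was sequenced in 20 libraries. The authors deposited whole-number read counts per gene symbol for each library, with no normalization. Per the submitters' processing notes, the tools include TopHat2 2.1.0 and Trimmomatic 0.38 as well as SAMtools 0.1.18 and FastQC 0.11.4, and the build is mm10. How reads were assigned to genes (tool, annotation, strand) is not given in the sources used here, so overlapping genes cannot be told apart. The 5 lines per file that name no gene were left out. Their main class, reads in no feature, was 5.67–8.17% in MHC II-high dura and 12–13.1% in microglia.

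All 20 libraries and 5 groups entered 1 edgeR 4.0.16 fit (R 4.3.3, TMM, filterByExpr, robust quasi-likelihood test, 15 residual degrees of freedom), which tested 13960 of 24421 genes. P-values were adjusted over all of these by Benjamini-Hochberg, two-sided, and calls need an adjusted p under 0.05 and a 2-fold change. Standard errors were derived from the fold change and its F value. The fit was also run on simulated counts with known changes, but the outcome is not reported here and lends no weight to the calls. DESeq2 1.42.0 and other settings served as alternatives, as did leaving out microglia 3 and 5 together, which was added after seeing the data. Exon overlaps come from GENCODE M21.

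The comparison, the 54 gene lists (719 genes, 657 tested) and the genes always named were chosen with earlier results of these data known. Named were the 12 largest differences in each direction at 20 CPM or more without overlap, up to 4 called genes per list and direction at 10 CPM or more, and 8 genes per direction called against all 3 groups. For the 12 and the 8, symbols that mark clones, gene models, mitochondrial genes, ribosomal RNA or pseudogenes were passed over. Not every gene these rules give is printed, a few are not reported here, and the other genes in the text were chosen after their values were seen.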

Additional observations from a re-analysis of the deposited data

Results flagged for a closer look

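Some libraries stood so far from the other 3 of their group that Dixon's test at the 95% level marked them. This held for 13 of 108 groups tested for the summed level of a list. It also held for 50 of 409 groups tested for a gene chosen by the naming rules or named here. Chance marks about 1 in 20 groups only where values are normally spread. A group with counts in 1 library and none in the other 3 is always marked, so these shares cannot be read against that rate. The values are given without an explanation.

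Microglia 3 had the marked sums of choroid plexus epithelium genes (21681 CPM), astrocyte genes (862 CPM), fibroblast genes (325 CPM), oxidative phosphorylation genes (2797 CPM) and coagulation genes (276 CPM). Among single genes it was highest of the microglia for Ttr (9725 CPM), Car12 (153 CPM), Cd74 (146 CPM), Lgals1 (19.6 CPM), Col1a1 (19.2 CPM), Sp7 (0.556 CPM) and Olfm1 (13.8 CPM). It held all microglial counts of Cd209a (0.432 CPM), Clec10a (0.432 CPM), Clec4n (0.185 CPM), Mmp13 (0.185 CPM) and Il10 (0.0617 CPM). It was lowest for C1qa (3319.7 CPM), C1qb (4909.5 CPM), C1qc (4573 CPM) and H2-Oa (31.9 CPM).

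Microglia 5 had the marked sum of interferon response genes (1691 CPM) and was highest for Ifit1 (26 CPM), Rsad2 (22.5 CPM) and C4b (28.5 CPM). It held all microglial counts of Spic (0.132 CPM) and was lowest for Rfxank (15.5 CPM). Microglia 1 had the marked sum of matrix protease genes (2961 CPM) and was highest for Adamts1 (1249 CPM), Hspa1b (32.7 CPM), Il1b (26.5 CPM) and Ly6c2 (1.13 CPM). The border macrophage genes F13a1 (1.88 CPM), Ms4a7 (1.38 CPM), Cd163 (1.19 CPM) and Pf4 (1.07 CPM) were highest there as well. It held all microglial counts of Ms4a1 (0.125 CPM), Ccl8 (0.251 CPM), Tlr8 (0.188 CPM), H2-Eb2 (0.0627 CPM) and Rgs18 (0.0627 CPM) and was lowest for Egr2 (58 CPM). Microglia 4 was highest for the sum of neuron genes (4.17 CPM), for Ccl7 (5.9 CPM) and for Ccl24 (3.99 CPM).

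MHC II-high dura 1 had the marked sum of cathepsin genes (28471 CPM) and was highest for Spi1 (523 CPM), Tmem119 (276 CPM), Acvrl1 (154 CPM), C2 (78.2 CPM) and Acp5 (34.3 CPM). It held all MHC II-high dura counts of Kcnk12 (0.326 CPM), Hbb-bs (0.0326 CPM) and Adamts16 (0.0652 CPM). MHC II-high dura 2 was lowest for Itgb7 (8.83 CPM). MHC II-high dura 3 was highest for the sum of costimulation genes (3234 CPM), for Mmp13 (163 CPM) and for Il1a (57.6 CPM). MHC II-high dura 4 was lowest for the sums of border macrophage markers (53590.4 CPM) and microglia identity genes (5893 CPM), highest for the sum of astrocyte genes (138 CPM) and for Il7r (4.72 CPM), and held all MHC II-high dura counts of Upk1b (0.551 CPM).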

How the results depend on the processing

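The counts over all genes kept within 1.5 times of their main value in 63 of 64 recomputations. The exception was the count of genes lower in MHC II-high dura than in microglia, MHC II-low dura and choroid plexus alike, which was 35 in fits of only the groups compared, against 57, where the spread is estimated from fewer libraries. Genes higher than in microglia numbered 2067 with DESeq2, 2029 with its size factors in edgeR, 1857 with only the 8 libraries, 1469 with a filter of 10 CPM, 2145 with no filter and 1980 after thinning to equal depth. Genes lower numbered 1910, 1882, 1492, 1153, 1977 and 1763 in the same order. Leaving out each of the 8 libraries gave 1975–2327 higher and 1630–1850 lower, and leaving out microglia 3 and 5 together gave 2154 and 1559. For the counts against all 3 groups the ranges were 64–100 higher and 49–61 lower. The groups share the replicate numbers 1, 3 and 4. The deviations of same-numbered libraries over 2000 genes correlated at −0.0108, −0.0396 and 0.0834, and those of other pairs at −0.123 to 0.0894. No sign that the numbers pair the libraries was seen, but so few pairs cannot exclude it. A fit with the replicate number as a block gave 2095 higher and 1541 lower. Number 5 occurs only in microglia 5, so that this fit in effect leaves that library out.

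No called fold change of a named gene changed sign. Among uncalled ones, Cd79b turned to −0.09 without microglia 3 and 5. Slc40a1 turned to −0.05 with DESeq2 and with its size factors, −0.01 with only the 8 libraries, −0.04 with a filter of 10 CPM, −0.01 with no filter, −0.10 with the replicate block, −0.06 after thinning and −0.20 without microglia 3 and 5, and ranged from −0.23 to 0.20 as single libraries were left out. Tgfbr2 turned to −0.05 with DESeq2 and with its size factors, −0.01 with only the 8 libraries, −0.04 with a filter of 10 CPM, −0.00 with no filter, −0.03 after thinning and −0.11 without microglia 3 and 5, and ranged from −0.10 to 0.10. The cause was not tested. Of 1728 recomputed counts of list members, 116 moved by over 1.5 times, and of the fold changes of named genes 146 lost and 10 gained a call. Low depth limits genes near 0: 3 counts stand for 0.0978–0.134 CPM in MHC II-high dura and 0.174–0.198 CPM in microglia, and intervals cover counting error only.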
